A study of Mus musculus with 15 samples.

Results

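The follistatin, activin and myostatin genes are 10 genes of 1 extracellular signalling axis, chosen by name from the 55487 genes of the count tables: the follistatin genes Fst, Fstl1 and Fstl3, the ligand genes Inhba, Inhbb, Mstn and Gdf11, and the receptor genes Acvr1b, Acvr2a and Acvr2b. All 10 were found in the tables and all 10 had enough counts to be tested. The samples were pieces of the midline free wall of the left ventricle from male mice killed at 225 days. The 7 kidney disease libraries came from Col4a5 mutant mice with chronic kidney disease, and the 8 wild-type libraries from littermates housed with them. The mice ate normal chow, and the labels place the mutants at a stage equivalent to advanced human kidney disease. The mutated gene codes for a collagen IV chain of basement membranes, on which the kidney filter depends, and the labels name no tissue-restricted promoter or Cre. The sources differ on the mutation, a knockdown in the labels and a knockout in the series text, and on the anaesthetic, isoflurane in the titles and ketamine/xylazine in the protocol.

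Activins and myostatin are secreted dimers of the TGF-beta superfamily. They bind a type II receptor, encoded by Acvr2a or Acvr2b, which recruits a type I receptor such as the one encoded by Acvr1b, and the complex phosphorylates SMAD2 and SMAD3. Follistatin and the product of Fstl3 wrap around the ligands and block receptor binding, and in skeletal muscle the balance of myostatin and follistatin sets muscle mass. FSTL1 shares a follistatin domain but is better known as a secreted glycoprotein of stromal cells and of the epicardium that has been studied in heart injury.

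Library totals ran from 54263014 to 65519279 counts in kidney disease and from 48748379 to 57962094 in wild type, with means of 58976222 and 52614931 counts (exact permutation test, two-sided, p = 0.0081, adjusted p = 0.016 over 2 library measures). Mitochondrial genes took 11.6% ± 0.803 of counts in kidney disease and 12.9% ± 0.941 in wild type (SD; exact permutation p = 0.017, adjusted p = 0.017). Col4a5 itself had 522 to 1111 counts in kidney disease libraries and 2442 to 3620 in wild-type libraries. The leading gene varied between libraries within both groups. The mitochondrial gene mt-Co1 had the most counts in 10 libraries, and the titin gene Ttn in the other 5, which were kidney disease 4, 5 and 7 and wild type 6 and 7. The 10 ventricular cardiomyocyte markers had a lowest and highest sum of 101588 and 122611 CPM in kidney disease, against 118160 and 125509 CPM in wild type (CPM, counts scaled to the library size by TMM).

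The promoters of Fstl1 and Mstn are shown because these genes had the highest and the lowest level of the 10. The 250 bases before the RefSeq start of each gene (build GRCm38.p6) are printed 5′ to 3′ on the strand of the gene. Capitals mark the GC box core, GGGCGG. They also mark the TATA box, written TATAAA, and both motifs were searched on both strands. The Fstl1 window is chr16:37776805-37777054 on the plus strand and the Mstn window is chr1:53061390-53061639 on the plus strand.
Fstl1: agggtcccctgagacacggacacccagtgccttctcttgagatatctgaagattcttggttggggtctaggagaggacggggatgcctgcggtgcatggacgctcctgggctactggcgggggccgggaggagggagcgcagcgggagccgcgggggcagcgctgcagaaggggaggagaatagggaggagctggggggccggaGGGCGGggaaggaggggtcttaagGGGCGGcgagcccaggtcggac
Mstn: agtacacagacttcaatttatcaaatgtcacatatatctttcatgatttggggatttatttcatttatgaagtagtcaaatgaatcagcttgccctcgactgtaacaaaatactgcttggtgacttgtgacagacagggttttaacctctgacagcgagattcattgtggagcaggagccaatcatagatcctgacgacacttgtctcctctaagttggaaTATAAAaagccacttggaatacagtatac

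The Fstl1 window was 68.0% G or C with 16 CpG pairs, 2 GGGCGG matches and no TATAAA. Part of it lies inside the gene as annotated in GENCODE M21, which places the first start further upstream. The Mstn window was 38.4% G or C with 3 CpG pairs, no GGGCGG and 1 TATAAA, which begins 29 bases before the start. RefSeq windows were at hand for 9 of the 10 genes. Over all 32851 windows of this length, the median was 6 CpG pairs, 32.7% held GGGCGG and 12.4% held TATAAA on either strand. Of the 9 windows, 7 had 16 to 49 CpG pairs and at least 1 GGGCGG, while those of Inhba and Mstn had 3 CpG pairs and none. TATAAA stood in 4 windows, those of Fstl3, Inhba, Mstn and Gdf11. The SMAD half-site CAGAC, searched on both strands, was found in 4 windows (Fstl3, Mstn, Acvr2a and Acvr2b) and in 42.2% of all windows. These matches are letters in a window and not measured binding sites.

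Per kilobase of exon, Fstl1 was the most abundant of the 10 genes and Mstn the least, a comparison of levels that did not enter the choice of the genes. Fstl1 had 19.9 ± 1.90 FPKM in kidney disease and 14.3 ± 1.33 FPKM in wild type (SD; FPKM is the scaled CPM per kilobase of exon). The receptor genes followed. Acvr1b had 5.81 ± 0.744 FPKM in kidney disease and 6.37 ± 0.576 FPKM in wild type, and Acvr2a had 5.22 ± 0.248 and 5.26 ± 0.409 FPKM in these groups. Acvr2b, the other type II receptor gene, had 2.13 ± 0.444 FPKM in kidney disease and 2.36 ± 0.311 FPKM in wild type. The ligand genes and the follistatins that bind them were lower. Inhbb and Gdf11 averaged 1.09 and 0.979 FPKM over all 15 libraries, Fstl3 averaged 0.822, Inhba 0.276, Fst 0.189 and Mstn 0.139.

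The ranges of neighbours in this order separated between Fstl1 and Acvr1b, between Acvr2a and Acvr2b, and between Fstl3 and Inhba, and overlapped for every other neighbouring pair. Within a library, Acvr2b was above Inhbb in 15 of 15 cases, and Acvr1b above Acvr2a in 13. Fstl1 made up 95.1% ± 1.21 of the summed FPKM of the 3 follistatin genes in kidney disease and 93.4% ± 0.682 in wild type. Between the subunit genes of activin A and activin B, Inhbb was the higher, at 4.41 ± 1.10 times Inhba in kidney disease and 4.12 ± 1.64 times in wild type. Gdf11, whose product is closely related to myostatin, was 13.0 ± 10.9 times Mstn in kidney disease and 6.93 ± 2.92 times in wild type. The ratio ran from 5.09 to 34.6 in kidney disease and from 3.33 to 11.9 in wild type. Its highest values were those of kidney disease 6 and 5, where Mstn had only 5 and 8 counts, so the kidney disease mean rests largely on these libraries. The 4 ligand genes together had 2.51 ± 0.724 times the FPKM of Fst and Fstl3 in kidney disease and 2.56 ± 0.202 times in wild type.

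**Figure D1:**
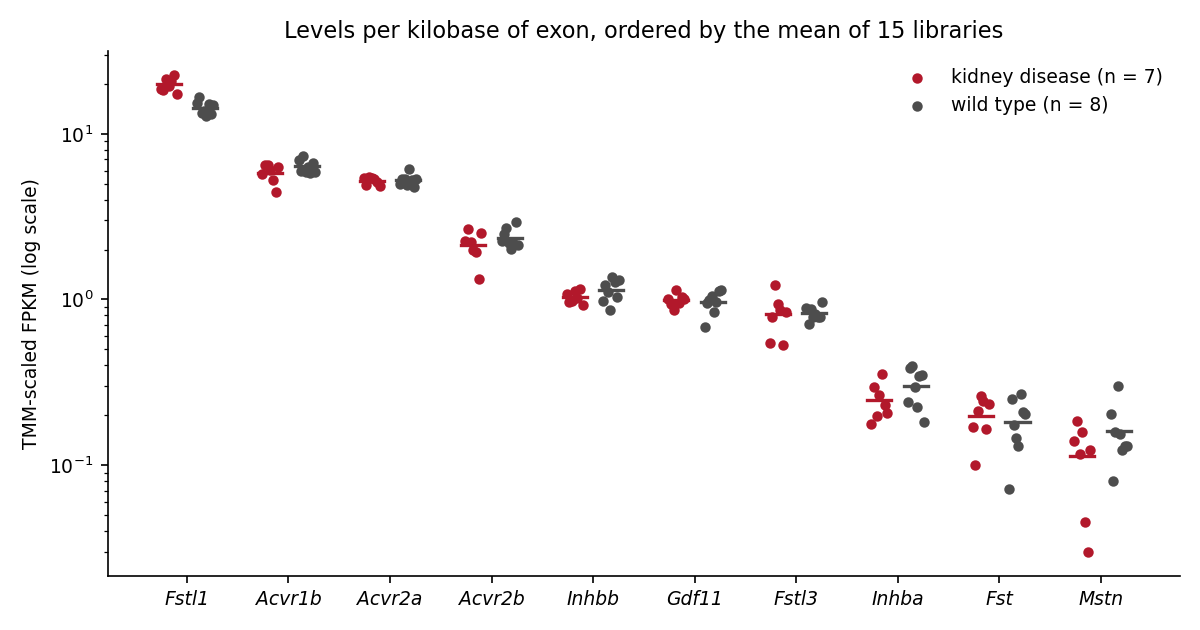
TMM-scaled FPKM (log axis) of the 10 genes in 7 kidney disease (left of each pair) and 8 wild-type libraries (right), ordered by the mean over 15 libraries. Points are libraries and lines are group means. Fstl1 lies above every other gene, and Inhba, Fst and Mstn lie lowest.

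The genes were proposed with the results of kidney disease against wild type already known, Fstl1 among them, so the changes in this contrast are given as a description and support nothing by themselves. Of the 10 genes, Fstl1 was higher and the other 9 did not pass in the edgeR quasi-likelihood test adjusted over all 20718 genes. Over all genes tested, 1.28% passed in either direction, 0.811% as higher and 0.473% as lower. At an unadjusted p under 0.05 the count was also 1 of 10, against 12.4% of all genes, and DESeq2 and limma-voom each called 1. The median log2 change of the 10 was -0.07, and that of all genes tested was 0.00.

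Fstl1 (ENSMUSG00000022816, chromosome 16, 37776873 to 37836514, GRCm38) had 85.2 CPM in the lowest, 95.5 in the median and 112 in the highest kidney disease library. In wild type the lowest, median and highest values were 62.5, 70.2 and 81.8 CPM. All 7 kidney disease libraries lay above all 8 wild-type libraries. Among all genes tested, 0.386% were higher without overlap in this way. The means were 97.6 ± 9.32 CPM in kidney disease and 70.5 ± 6.56 CPM in wild type (SD), a log2 change of 0.47 (SE 0.07, adjusted p = 0.0046) or 1.38-fold. No annotated exon of another gene overlaps those of Fstl1, and each library held 3025 to 6904 of its counts. With any 1 library left out, the log2 change stayed between 0.43 and 0.50, with adjusted p at most 0.016.

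Within the libraries led by mt-Co1, Fstl1 averaged 100.1 CPM in 4 kidney disease and 70.8 CPM in 6 wild-type libraries, a log2 change of 0.50 (adjusted p = 0.027). Within those led by Ttn it averaged 94.3 CPM in 3 kidney disease and 69.4 CPM in 2 wild-type libraries. The log2 change there was 0.44 and did not pass with 5 libraries (adjusted p = 0.33). The 3 kidney disease values ran from 85.2 to 102 CPM, and the wild-type values were 64.6 and 74.2 CPM. Since the whole groups did not overlap, the order within either subset, led by mt-Co1 or by Ttn, was fixed in advance. Neither subset adds support.

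Markers of several cell types moved in the same direction as Fstl1. Among lists without a call, 5 of 5 atrial cardiomyocyte (median 0.54), 8 of 8 endothelial (0.10) and 7 of 8 smooth muscle and pericyte markers (0.08) had positive changes. Medians were negative for ventricular cardiomyocyte (-0.05), skeletal muscle (-0.31) and adipocyte markers (-1.07). The 4 lists with a call follow, and of all genes tested 0.811% rose and 0.473% fell. Of 10 fibroblast markers, 4 rose and 0 fell, with a median log2 change of 0.20. They were Dpt (0.30, SE 0.06), Pi16 (0.33, SE 0.07), Lum (0.25, SE 0.06) and the microfibril gene Mfap5 (0.51, SE 0.11), while the fibroblast receptor gene Pdgfra had a log2 change of -0.03 (SE 0.07). The summed fibroblast markers lay between 559 and 748 CPM in kidney disease, against 509 and 659 CPM in wild type, so the groups overlapped. Of 12 macrophage markers, 9 rose and 0 fell, with a median of 0.48, and their sum lay between 439 and 619 CPM in kidney disease, against 322 and 385 CPM in wild type. Of 6 B cell markers 5 rose and 0 fell, with a median of 1.10, and their sum had a median of 20.2 CPM in kidney disease and 10.8 CPM in wild type. Of 8 mesothelial markers, Wt1 rose (0.66, SE 0.14), and the sum lay between 14.5 and 46.0 CPM in kidney disease, against 10.5 and 44.0 CPM in wild type. No marker of these 4 lists was at 0 in all libraries. The part of these cell types in the Fstl1 difference was not tested. In tissue RNA, more cells that express a gene and more RNA of it per cell cannot be told apart.

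**Figure D2:**
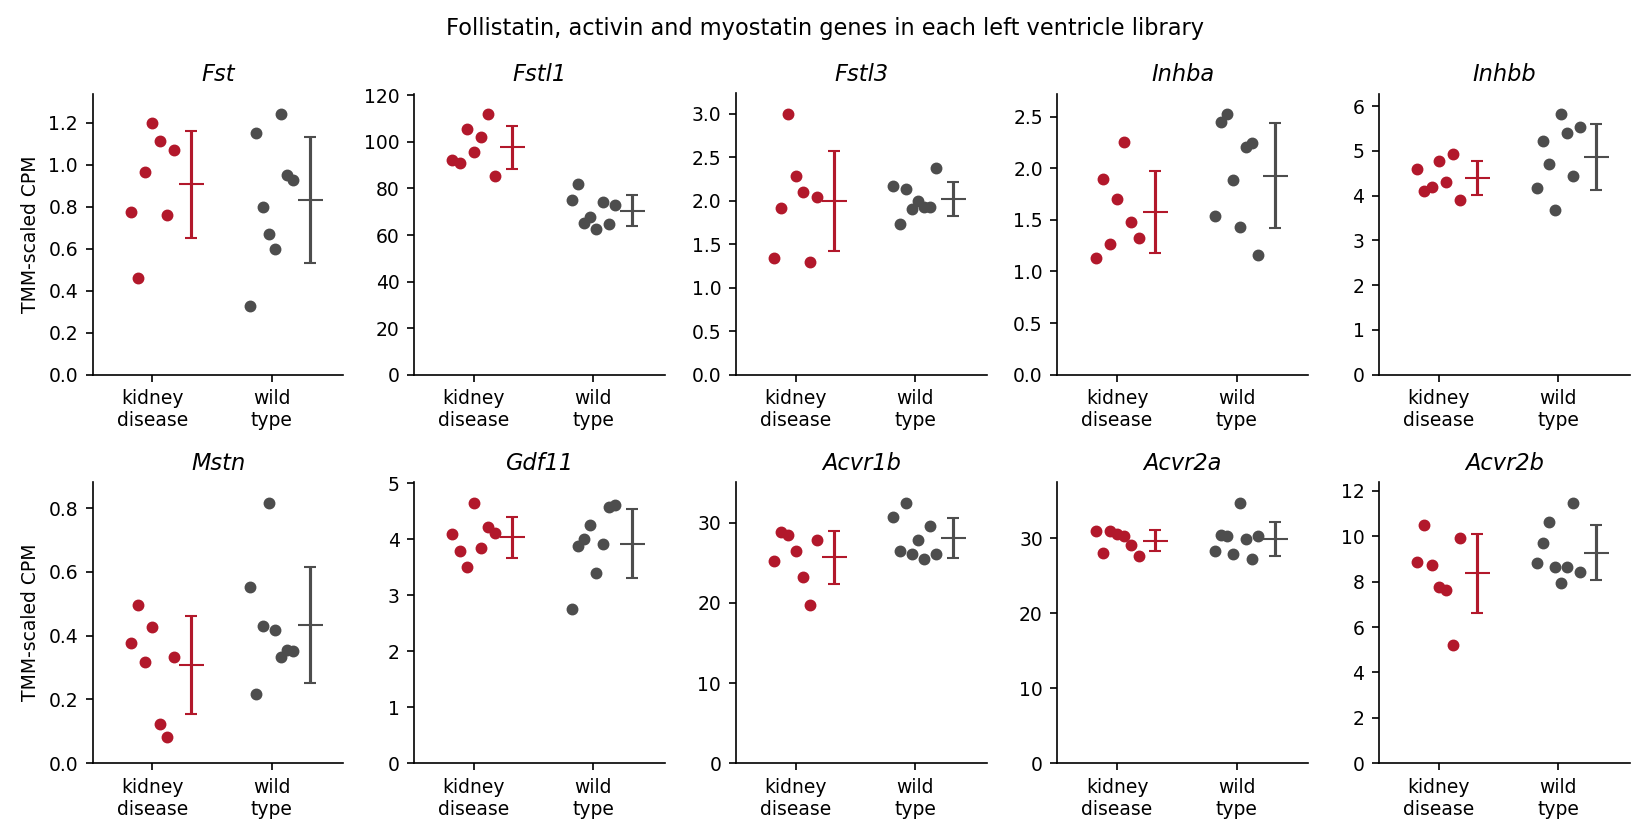
TMM-scaled CPM of each gene in 7 kidney disease (left) and 8 wild-type libraries (right), with the group mean and SD beside the points. Fstl1 separates the groups without overlap, and the values of the other 9 genes overlap.

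Fst and Fstl3, the follistatin genes whose products neutralise activins and myostatin, showed no called difference. Fst (ENSMUSG00000021765, chromosome 13) had 0.461, 0.968 and 1.20 CPM as the lowest, median and highest value in kidney disease and 0.327, 0.864 and 1.24 CPM in wild type. The ranges nearly coincided. Its log2 change was 0.12 (95% interval -0.41 to 0.65), from 26 to 84 counts per kidney disease library and 16 to 67 per wild-type library. Fstl3 (ENSMUSG00000020325, chromosome 10) had 1.30, 2.04 and 2.99 CPM in kidney disease and 1.73, 1.96 and 2.38 CPM in wild type as lowest, median and highest. Kidney disease held both the highest value and the lowest values. The log2 change was -0.02 (95% interval -0.35 to 0.32), and its sign turned when any of kidney disease 1, kidney disease 6, wild type 1 and wild type 8 was left out, and within the libraries led by Ttn. Fstl3 varied more between kidney disease animals, with a coefficient of variation of 29.0% in kidney disease and 9.87% in wild type, where counting error alone gives 9.08% and 9.83%. Part of its exons, 1157 bases, lies opposite Prss57, which had at most 7 counts in a library.

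The ligand genes did not pass either. Inhba (ENSMUSG00000041324, chromosome 13), which encodes the subunit of activin A, had 1.13, 1.47 and 2.25 CPM as lowest, median and highest in kidney disease and 1.16, 2.05 and 2.52 CPM in wild type. Of the 7 kidney disease libraries, 1 was above the wild-type mean. The log2 change was -0.29 (95% interval -0.68 to 0.11, adjusted p = 0.59). Inhbb (ENSMUSG00000037035, chromosome 1), the activin B subunit gene, had 3.91, 4.31 and 4.94 CPM in kidney disease and 3.68, 4.96 and 5.82 CPM in wild type. Again 1 kidney disease library was above the wild-type mean, and the log2 change was -0.14 (95% interval -0.36 to 0.07, adjusted p = 0.63).

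Mstn (ENSMUSG00000026100, chromosome 1), the myostatin gene, had the widest interval of the 10. It had 0.0810, 0.334 and 0.497 CPM as lowest, median and highest in kidney disease and 0.216, 0.387 and 0.817 CPM in wild type. In counts this was 5 to 30 per kidney disease library and 12 to 45 per wild-type library. The 2 lowest values, 5 and 8 counts, were those of kidney disease 6 and 5, and wild type 4 held the highest, so the groups overlapped. The log2 change was -0.50 (SE 0.35, 95% interval -1.24 to 0.24, adjusted p = 0.64). Between animals Mstn had a coefficient of variation of 49.9% for kidney disease and 41.9% for wild type, where counting error alone gives 23.3% and 21.1%. Of 11 markers of skeletal muscle, the tissue best known for myostatin, 6 could be tested, all 6 had negative log2 changes, the sign of Mstn, with a median of -0.31, and 0 passed in the edgeR test, with 0 at an unadjusted p under 0.05. Their sum had a median of 25.1 CPM in kidney disease and 30.3 CPM in wild type, with overlapping groups. Most of it was the myosin-binding protein gene Mybpc2, at 21.8 CPM in kidney disease and 25.5 CPM in wild type, and no marker of the list was at 0 in all libraries. Their part in the Mstn values was not tested. Gdf11 (ENSMUSG00000025352, chromosome 10) had 3.50, 4.10 and 4.65 CPM in kidney disease and 2.76, 3.96 and 4.61 CPM in wild type. The ranges overlapped over most of their length. Its log2 change was 0.04 (95% interval -0.19 to 0.27), turning sign without wild type 1 and within the libraries led by Ttn.

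The receptor genes did not pass. Acvr2a (ENSMUSG00000052155, chromosome 2) had 27.7, 30.4 and 31.0 CPM as lowest, median and highest in kidney disease and 27.2, 30.1 and 34.7 CPM in wild type. It was the steadiest of the 10, with a coefficient of variation of 4.75% in kidney disease and 7.77% in wild type. Its log2 change of -0.01 had a 95% interval of -0.13 to 0.10. The sign changed with single libraries left out, and 446 bases of its exons lie opposite Orc4, which had 661 to 1140 counts per library. Acvr1b (ENSMUSG00000000532, chromosome 15), the type I receptor gene, had 19.7, 26.5 and 28.8 CPM in kidney disease and 25.5, 27.2 and 32.5 CPM in wild type. In kidney disease 3 of 7 libraries lay below the whole wild-type range. The log2 change was -0.13 (95% interval -0.29 to 0.03, adjusted p = 0.55) and -0.08 without kidney disease 6. Acvr2b (ENSMUSG00000061393, chromosome 9) had 5.20, 8.75 and 10.5 CPM in kidney disease and 7.93, 8.72 and 11.5 CPM in wild type. Here too 3 kidney disease libraries lay below the wild-type range, while the medians were nearly equal. The log2 change was -0.15 (95% interval -0.40 to 0.10, adjusted p = 0.69), and -0.06 without kidney disease 6.

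**Figure D3:**
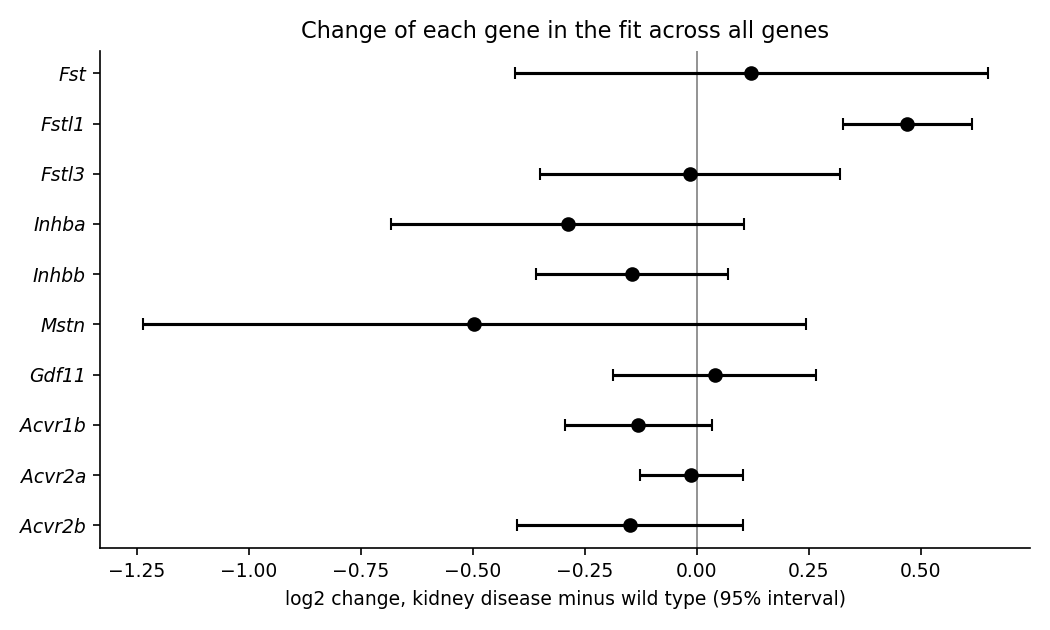
Log2 change of each gene, kidney disease minus wild type, with its 95% interval from the fit across all genes. The interval of Fstl1 runs from 0.33 to 0.61, that of Mstn is the widest, and those of the 9 genes other than Fstl1 include 0.

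How the genes varied together between animals was measured on deviations from the group means, which the choice of the genes did not use. Among 8 genes with a mean of at least 1 CPM, 28 pairs were compared over 15 libraries. The receptor genes Acvr1b and Acvr2b had the smallest p. By r they passed only just under the threshold (Pearson r = 0.81, permutation p = 0.0018, adjusted p = 0.0496). By rank they did not pass (Spearman rho = 0.75, permutation p = 0.0023, adjusted p = 0.063). Without the 2 libraries farthest from the median of Acvr1b, r was 0.62. Inhbb and Acvr2a came next by the p of r (r = 0.72, permutation p = 0.0064, adjusted p = 0.089). Their rho was 0.62 (permutation p = 0.014, adjusted p = 0.13), and r was 0.59 without the 2 farthest. By rank, Inhbb and Acvr2b had a smaller p, with the opposite sign (rho = -0.65, permutation p = 0.0093, adjusted p = 0.13). Their r was -0.45 (permutation p = 0.052, adjusted p = 0.29), and -0.61 without the 2 farthest. The correlation of Fstl1 with Acvr1b was negative and did not pass (r = -0.54, permutation p = 0.044, adjusted p = 0.29; rho = -0.42, permutation p = 0.14, adjusted p = 0.60; r = -0.30 without the 2 farthest). That of the type II receptor genes Acvr2a and Acvr2b did not pass either (r = -0.33, permutation p = 0.18, adjusted p = 0.64; rho = -0.38, permutation p = 0.17, adjusted p = 0.60; r = -0.08 without the 2 farthest).

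The genes whose deviations were most like those of a member were taken from 12471 protein-coding genes, as the highest of that many correlations over the same 15 libraries. For Fstl1 they were Ilf2 (r = 0.86, rho = 0.82), the sterol isomerase gene Ebp (r = 0.86, rho = 0.82) and the cytoplasmic actin gene Actb (r = 0.85, rho = 0.84). Without the 2 libraries farthest in Fstl1, r was 0.75, 0.83 and 0.79 for these genes. Unlike Fstl1, they had log2 changes of 0.11, 0.06 and 0.15 between the groups and did not pass. For Fst they were the membrane protease gene Mmp14 (r = 0.92, rho = 0.92), Fam20a (r = 0.90, rho = 0.88) and Sh3pxd2b (r = 0.89, rho = 0.88), with r of 0.82, 0.86 and 0.73 without the 2 farthest. For Mstn they were Rnf123 (r = 0.85, rho = 0.83), Kdm4b (r = 0.83, rho = 0.82) and Lzts3 (r = 0.83, rho = 0.82), with r of 0.75, 0.68 and 0.74 without the 2 farthest. For Fstl3 they were Rpp25 (r = 0.75, rho = 0.60), Ccdc102a (r = 0.74, rho = 0.79) and Rdh10 (r = 0.73, rho = 0.69). Without the 2 libraries farthest in Fstl3, r was 0.48, 0.54 and 0.60. The libraries share scaling and depth, and Mstn rests on few counts.

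Of the 11 genes of ligand processing and extracellular inhibition, 1 rose and 0 fell, with a median log2 change of 0.04. It was Dcn, which encodes decorin, a matrix proteoglycan that binds myostatin and TGF-beta, at 344 CPM in kidney disease and 300.1 CPM in wild type (log2 change 0.20, SE 0.05, adjusted p = 0.047). Dcn is also abundant in fibroblasts, and with 1 library left out it passed only without wild type 7 or 8. Tll2, a protease gene of the family that frees myostatin from its propeptide, had 1.12 CPM in kidney disease and 1.75 CPM in wild type (-0.64, SE 0.20, adjusted p = 0.14) and passed in DESeq2 (adjusted p = 0.041). The procollagen protease gene Bmp1, of the same family, had 37.4 CPM in kidney disease and 34.1 CPM in wild type (0.13, SE 0.07, adjusted p = 0.45). Tll1, also of this family, had a positive change too (0.26, SE 0.26, adjusted p = 0.77). Bmp1, Tll1 and the latent binding protein gene Ltbp3 (-0.11, SE 0.08, adjusted p = 0.65) did not pass.

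No gene of the other lists of the pathway passed in the edgeR test. Of 14 genes of SMAD signalling 13 were tested, with 0 called, 3 at an unadjusted p under 0.05 and a median of 0.01. The inhibitory Smad7 had the smallest p, at 58.2 CPM in kidney disease and 46.0 CPM in wild type (0.34, SE 0.11, adjusted p = 0.16). It passed in 1 of 15 fits with 1 library left out, that without kidney disease 6 (0.42, adjusted p = 0.029). Of the 11 other settings, it passed in 0. The signal carriers Smad2, Smad3 and Smad4 had log2 changes of -0.03, -0.08 and -0.01. The SMAD co-repressor gene Skil (0.14, SE 0.06, adjusted p = 0.38) and Tgif1 (0.27, SE 0.13, adjusted p = 0.39) did not pass. Of 10 SMAD2/3-responsive genes, 0 were called and 0 had an unadjusted p under 0.05, with a median of 0.04. Among them were the cell cycle inhibitor gene Cdkn1a (0.56, SE 0.33, adjusted p = 0.54) and the NADPH oxidase gene Nox4 (0.31, SE 0.19, adjusted p = 0.54). The muscle atrophy ligase genes Fbxo32 and Trim63, which rise with myostatin signalling in skeletal muscle, had -0.03 (SE 0.12) and 0.05 (SE 0.07).

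Of 10 other receptor and co-receptor genes 9 were tested, 0 were called, and 2 had an unadjusted p under 0.05. These were the endothelial co-receptor gene Eng (0.21, SE 0.08, adjusted p = 0.24) and Tgfbr2 (0.14, SE 0.05, adjusted p = 0.26), ahead of the decoy receptor gene Bambi (0.14, SE 0.08, adjusted p = 0.54). Among 6 other ligand genes only the inhibin subunit gene Inha was high enough to test (-0.05, SE 0.15, adjusted p = 0.95), and 0 were called. Of 4 genes for reported FSTL1 partners 0 were called, and Cd14, a co-receptor of bacterial lipopolysaccharide found on macrophages, had 4.66 CPM in kidney disease and 3.52 CPM in wild type (0.40, SE 0.12, adjusted p = 0.11). DESeq2 called it (adjusted p = 0.042). The receptor gene Tlr4 (0.10, SE 0.08, adjusted p = 0.66) and Bmp4 (0.15, SE 0.13, adjusted p = 0.73) did not pass. Of 12 other follistatin-domain genes 9 were tested and 0 were called. Sparc, a collagen-binding matrix protein gene, had 274 CPM in kidney disease and 229 CPM in wild type (0.26, SE 0.08, adjusted p = 0.11), and passed in DESeq2 (adjusted p = 0.039). Fstl4 (0.25, SE 0.12, adjusted p = 0.41) and Sparcl1 (0.10, SE 0.06, adjusted p = 0.53) did not pass. DESeq2 called 2 genes of ligand processing, 1 FSTL1 partner, 1 follistatin-domain gene and 0 of the other pathway lists. For the edgeR counts of these lists too, the overall shares were 0.811% higher and 0.473% lower. DESeq2 called 1.83% higher and 1.26% lower, as a percent of the 20718 genes of the main test.

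**Figure D4:**
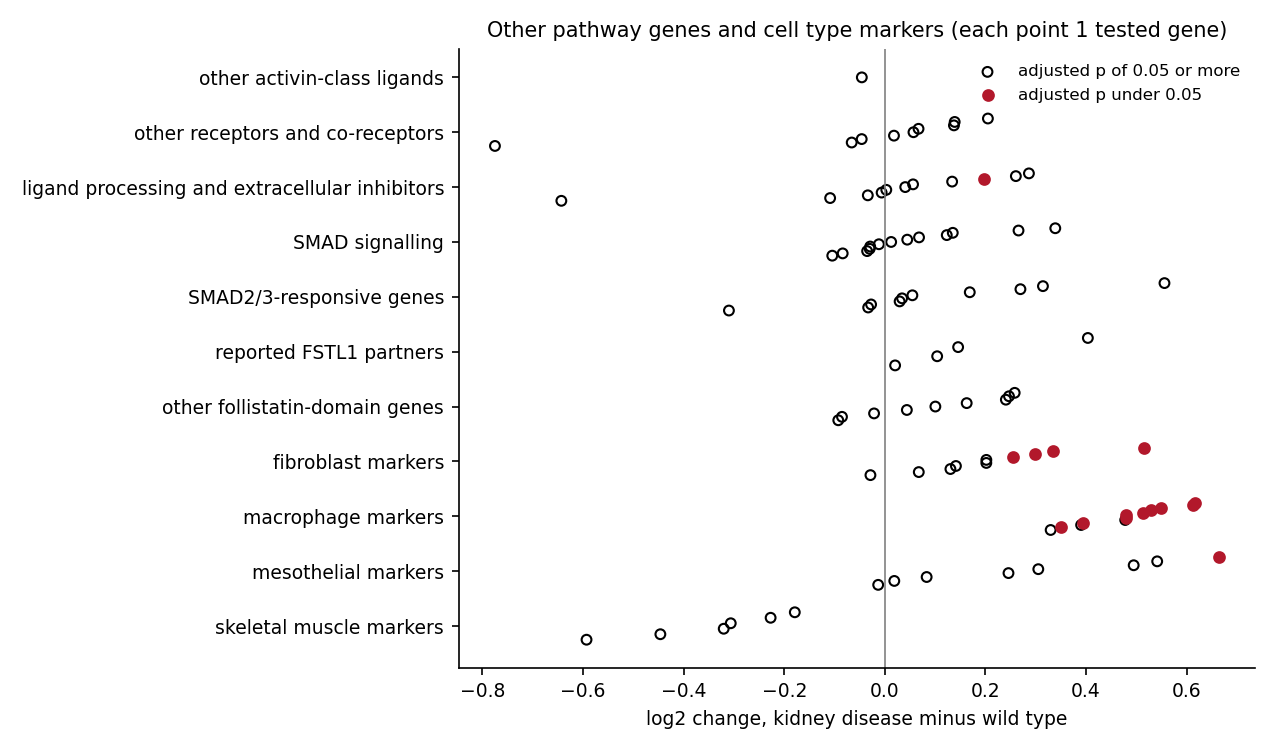
Log2 change, kidney disease minus wild type, of every tested gene of the other pathway lists and of the fibroblast, macrophage, mesothelial and skeletal muscle markers. Filled points have an adjusted p under 0.05 over all genes, as did 1.28% of all genes tested. Among the lists drawn 9 are macrophage markers, 4 fibroblast markers, 1 a mesothelial marker and 1, Dcn, a pathway gene.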

How the data were processed

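RNA from 15 left ventricles was sequenced after removal of ribosomal RNA (KAPA RiboErase, RNA integrity number of at least 8.0 per the labels' protocols). For every gene, the deposited table of a library has 3 columns, per the file headers: the count, the CPM and the FPKM. Tools listed in the submitters' processing notes are STAR 2.7.9a, featureCounts 2.0.3, bcl2fastq and Subread, with the build GRCm38. The strand setting is not given in the sources used here. The deposited CPM equals counts over the library total and the deposited FPKM equals CPM per kilobase of exon, with a largest relative difference of 1.36e-13. Symbols came from GENCODE M21, in which 55227 of 55487 identifiers were found. No pair of libraries was identical (lowest chi-square per degree of freedom within groups 9.16), and the design text calls them biological replicates.

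Genes kept by filterByExpr (minimum count 10), 20718 in all, were scaled by TMM. Group was the single term of the model, fitted in edgeR 4.0.16 (R 4.3.3) and tested by quasi-likelihood, with p-values adjusted by Benjamini-Hochberg with a threshold of 0.05. The SE is the size of the log2 change over the square root of F, and intervals use the degrees of freedom of that fit. Correlations used log2(CPM + 0.5) deviations and 100000 permutations within groups. Counting error covers counts only.

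The 10 genes, the pathway and marker lists and the tests were chosen with earlier results of these data known. The text names all members, Col4a5 as the check of the labels, every called gene and the next 3 by p of each pathway list, the 3 genes most like Fstl1, Fst, Fstl3 and Mstn, and up to 3 markers per list, except for 1 gene that is not reported here. Pdgfra, Lum, Tll1, Fbxo32, Trim63, Smad2, Smad3 and Smad4 were named after their values were seen. The pipeline was tested on simulated counts. Alternatives were other scalings and filters, DESeq2 1.42.0, limma-voom 3.58.1, removal of mitochondrial genes, a replicate block, the leading gene as a covariate or as subsets, and each library left out. Replicate numbers are shared by the groups, but same-numbered libraries deviated together in some pairs and apart in others, with correlations from -0.26 to 0.49, so they were not treated as pairs.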

Additional observations from a re-analysis of the deposited data

Results flagged for a closer look

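Of 20 groups of values, 10 genes in 2 groups, 1 held a library far from the others, where chance gives about 1 in 20 groups. Wild type 5 had the highest Acvr2a of its group, 34.7 CPM, and the next wild-type library had 30.5 CPM. The gap was 0.563 of the group's range, above the limit of 0.526 for 8 samples. Without wild type 5 the log2 change of Acvr2a was 0.02 (adjusted p = 0.92).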

How the results depend on the processing

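Fstl1 kept its direction in all alternatives tried, with log2 changes of 0.43 to 0.50, and passed in 10 of 11 settings other than leaving out 1 library. The exception was the 5 libraries led by Ttn, where 0 members were called (0.44, adjusted p = 0.33). The whole groups did not overlap in Fstl1, which was chosen with this contrast known. Its direction could therefore hardly turn in these fits, and they add no support. The other members were not called in any setting, and Fst and Mstn were not tested with at least 1 CPM in 7 libraries. Small changes turned sign: within the mt-Co1 libraries Fst had -0.0080, and within the Ttn libraries Fstl3 had 0.15, Gdf11 -0.018, Acvr2a 0.042, Tlr4 -0.0036, Bmp4 -0.031 and Fstl4 -0.027. With 1 library left out, Fstl3 ran from -0.14 to 0.067, Acvr2a from -0.030 to 0.022, Gdf11 from -0.020 to 0.079 and Inha from -0.13 to 0.017. The cause was not tested. Of all genes, as a percent of the 20718 of the main test, 0.811% rose and 0.473% fell. DESeq2 gave 1.83% and 1.26%, the leading gene as a covariate 1.62% and 0.907%, the mt-Co1 libraries 0.241% and 0.174%, and the Ttn libraries 0.00483% and 0.00965%. Without a filter 0.314% fell, and with at least 1 CPM in 7 libraries 0.743% fell. Leaving out 1 library gave 0.323% to 0.946% higher and 0.145% to 0.927% lower. At least one of these shares moved by over 1.5 times when any library was left out, except for wild type 2 and wild type 8. With the replicate block, 0.319% rose and 0.241% fell, Fstl1 still passed (0.48, adjusted p = 0.020), and 0 genes of ligand processing passed. Kidney disease 1, 3 and 7 correlated best with the wild-type library of their own number, and kidney disease 2, 4, 5 and 6 did not. The list of ligand processing genes had 0 calls with no filter and within either set of libraries, 2 in DESeq2, and 0 to 1 with 1 library left out. SMAD signalling had 0 to 1 with 1 library left out. DESeq2 called 1 FSTL1 partner and 1 follistatin-domain gene, and the leading-gene covariate also called 1 follistatin-domain gene. Deviations from the means of group and leading gene gave 2 gene pairs past the threshold in place of 1. Mstn and Fst rest on few counts, at most 45 and 84 per library, and their spread between animals exceeded counting error.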

Other observations

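Kidney disease 6 stood at an end of its group for 6 of the 10 genes, the most of any library, with the next at 4 (kidney disease 2 and wild type 5). It had the highest Fstl1 and Inhbb of the kidney disease libraries and the lowest Fstl3, Mstn, Acvr1b and Acvr2b. This count was made after the values were seen and was not tested.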
